A study of Homo sapiens with 9 samples.

Results

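The genes described here encode 7 small GTPases of secretory vesicles (RAB26, RAB37, RAB3A, RAB3B, RAB3D, RAB27A and RAB27B) and 3 proteins of dense-core vesicles (PTPRN, PTPRN2 and CHGA). They were measured by 24 of the 54675 probe sets on the array, and they are 10 of the 19775 genes that the array's probe table names. The genes were chosen by name with their measured log2 differences from DMSO already known. Their values are therefore given as a description with standard errors and intervals and without p-values. All samples were cultures of PANC-1, an established pancreatic carcinoma line of ductal character. RNA came from 3 samples with the solvent DMSO, 3 with the small molecule BRD7552 (5 uM) for 6 h and 3 with the same dose for 72 h, and each sample was read on 1 Affymetrix array. The series gives the induction of PDX1, a pancreatic homeobox factor, as the reason for that dose. No exposure time is given for the DMSO samples, and the same 3 DMSO arrays stand in both comparisons with solvent.

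Rab proteins are small GTPases that sit on vesicle membranes in their GTP-bound form and leave them in their GDP-bound form. In the active form they recruit effectors that move, tether and dock the vesicle. RAB3 and RAB27 proteins act on vesicles of regulated secretion, including insulin granules in beta cells and zymogen granules in acinar cells of the pancreas, and RAB26 and RAB37 are related GTPases found on secretory granules. PTPRN and PTPRN2, also called IA-2 and IA-2 beta, are phosphatase-like proteins that span the membrane of dense-core vesicles, and CHGA encodes chromogranin A, a soluble cargo of these vesicles.

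Several properties of the arrays moved with the 72 h group. The upper quartile of the signal, in arbitrary linear units, lay between 112 and 119 on 7 arrays and at 97.5 (72 h replicate 2) and 99.7 (72 h replicate 3) on the remaining ones. Signal at the 3' end of ACTB over its 5' end, a measure of RNA integrity, was 2.07 to 2.21 at 72 h and 1.74 to 2.05 on the other arrays. The same ratio for GAPDH overlapped between 72 h (1.34 to 1.39) and DMSO (1.31 to 1.35), and was 1.27 to 1.31 at 6 h. Replicates at 72 h were also less alike, with a median per-gene SD of 0.129 log2 units against 0.067 with DMSO and 0.075 at 6 h. Among the lists of markers of pancreatic cell types, 8 of 11 ductal markers on the array had a mean above the filter on low values (linear 17.8, the median probe set). The summed signal of all 11 was 25755 to 26551 with DMSO, 25653 to 26026 at 6 h and 21188 to 23480 at 72 h. At 72 h KRT7 (0.477-fold), CA2, KRT18 and KRT19 fell and MUC1 rose (limma adjusted p = 0.000489 for KRT7 and 0.000994 for MUC1). Of the neuroendocrine markers 6 of 11 lay above the filter, and of these only ENO2 fell at 72 h (0.613-fold, adjusted p = 0.000703). The others did not pass, with SYP higher (1.37-fold, limma adjusted p = 0.0533) and CHGB lower (0.778-fold, 0.178). The summed signal of all 11 neuroendocrine markers was 354 to 358 with DMSO, 382 to 383 at 6 h and 285 to 341 at 72 h. Only 2 of 10 acinar markers (CELA3A and CELA3B) and 2 of 10 islet markers (ABCC8 and TTR) lay above the filter, and none of these 4 passed the test at either time. Summed signals of all 10 acinar markers were 132 to 136, 130.3 to 136 and 123 to 136, and those of all 10 islet markers 137 to 148, 135 to 149 and 117 to 165. Leukocyte, fibroblast and endothelial markers were above the filter for 1 of 6, 3 of 8 and 2 of 7 genes. Over all markers on the array the summed signals with DMSO, at 6 h and at 72 h were 73.4 to 77.7, 63.5 to 71.7 and 56.3 to 73.3 for the leukocyte list. They were 739 to 814, 691 to 799 and 625 to 721 for the fibroblast list and 97.8 to 109, 92.2 to 104 and 98.9 to 124 for the endothelial list. Of these lists, THY1 of the fibroblast list was lower at 72 h than at 6 h (0.637-fold, limma adjusted p = 0.0497), and no other marker passed in any comparison. What part these array and marker differences had in the results was not tested.

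RAB26, a GTPase of secretory granules, showed the largest positive difference among the members after long exposure. Its probe set 219562_at read 80.3, 78.9 and 79.0 on the DMSO arrays, 85.5, 93.0 and 78.6 at 6 h and 265, 235 and 203 at 72 h. Every 72 h array lay far above every other array, and the 6 h arrays overlapped the DMSO arrays. At 72 h the signal was 2.93-fold that of DMSO (95% interval of the fit 2.44 to 3.53, log2 difference 1.55 ± 0.11, SE, n = 3 arrays per group). At 6 h the log2 difference was 0.11 ± 0.11. The other RAB26 probe set, 50965_at, read 68.3, 68.2 and 74.0 with DMSO, 69.7, 76.2 and 70.8 at 6 h and 229.6, 182 and 187 at 72 h. It gave nearly the same size at 72 h, 2.83-fold (2.36 to 3.40), so both probe sets showed the late difference and neither showed one of that size at 6 h. Among the 12678 genes above the filter the log2 difference of RAB26 at 72 h ranked second from the highest. With 1 array left out at a time it ran from 1.46 without 72 h replicate 1 to 1.65 without 72 h replicate 3. In RNA of a whole culture, more transcript per cell and more cells that carry it cannot be told apart, here and in all values that follow.

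**Figure D1:**
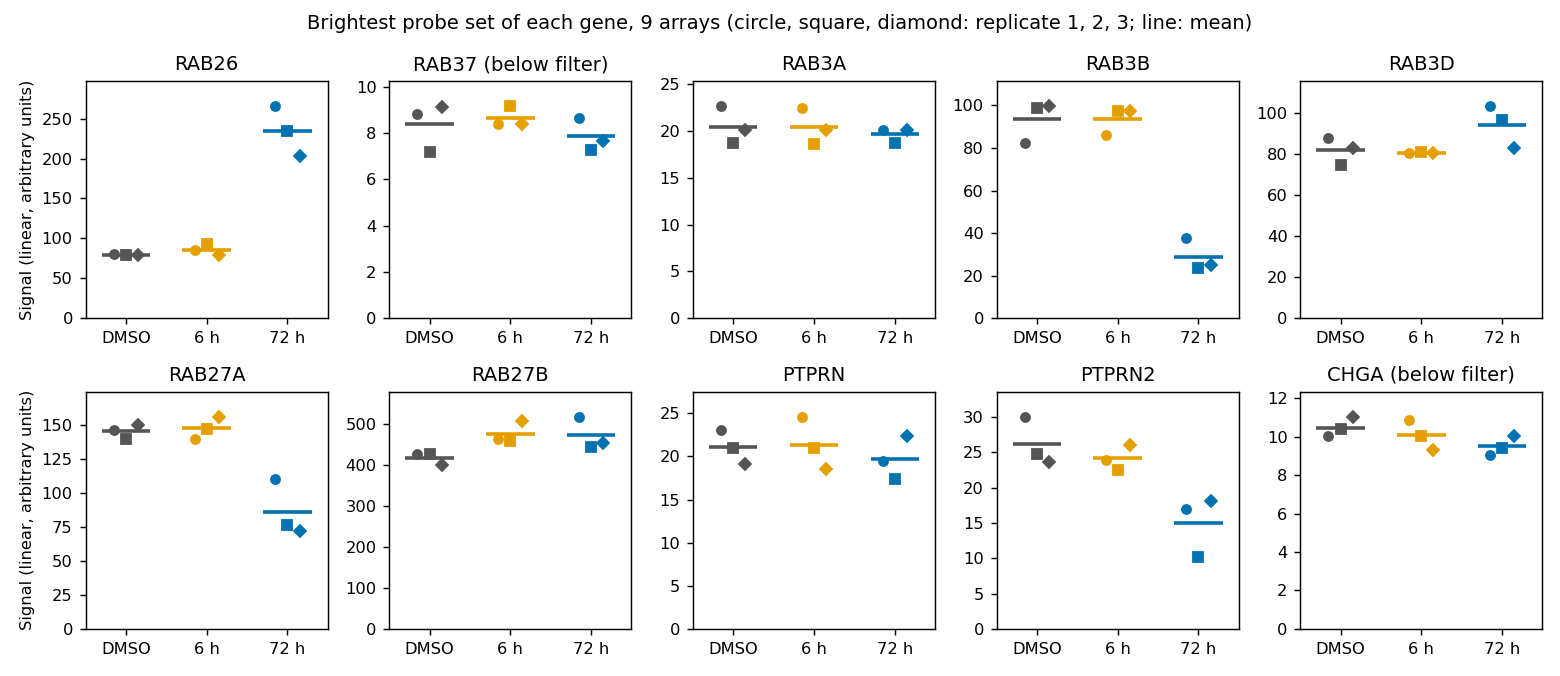
Signal of the brightest probe set of each of the 10 genes on the 9 arrays, in linear arbitrary units from 0, with 1 panel per gene. Points are single arrays (circle, square and diamond for replicates 1, 2 and 3) and lines are group means of 3 arrays. RAB26 stands at 203 to 265 on the 72 h arrays against 78.6 to 93.0 on the others, and RAB3B at 23.7 to 37.8 against 82.3 to 99.5.

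RAB37, the closest relative of RAB26 in the family, was measured by 1 probe set whose signal lay below the filter. It read 8.81, 7.19 and 9.13 with DMSO, 8.40, 9.15 and 8.40 at 6 h and 8.66, 7.27 and 7.65 at 72 h. All groups overlapped, and no difference beyond its error was detectable at this signal (log2 difference at 72 h -0.088 ± 0.11).

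RAB3B, a RAB3 protein of secretory and synaptic vesicles, showed the largest negative difference among the members. Its brightest probe set, 205924_at, read 82.3, 98.9 and 99.5 with DMSO, 85.9, 97.6 and 97.5 at 6 h and 37.8, 23.7 and 24.8 at 72 h. The DMSO and 6 h arrays overlapped, and the 72 h arrays all lay below them, with replicate 1 the least low. At 72 h the signal was 0.302-fold that of DMSO (0.228 to 0.399, log2 difference -1.73 ± 0.17), the 11th lowest of the 12678 genes. At 6 h the log2 difference was 0.0045 ± 0.17. A second probe set, 239202_at, read 35.4, 36.3 and 35.5 with DMSO, 25.7, 38.2 and 38.7 at 6 h and 14.1, 15.1 and 11.9 at 72 h (0.382-fold). Its 72 h arrays were again the lowest of all arrays. The dimmer 205925_s_at read 28.3, 22.2 and 21.9 with DMSO and 13.99, 10.06 and 18.5 at 72 h (0.574-fold), and 227123_at, whose mean lay below the filter, 16.3, 15.2 and 15.3 against 10.3, 9.67 and 10.4 (0.650-fold). At 72 h the means of 239202_at (13.7) and 205925_s_at (14.2) also lay under the filter value of 17.8, so the sizes of their differences are uncertain. The dimmest, 242629_at, read 6.39 to 9.999 over all arrays and its groups overlapped. The size of the lower signal thus shrank with the brightness of the probe set, from log2 -1.73 to -0.18, and averaging the 5 probe sets gave -0.94. Leaving out single arrays gave -1.94 without 72 h replicate 1 to -1.60 without 72 h replicate 2.

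RAB3D, the RAB3 protein of zymogen granules in acinar cells, did not share the pattern of RAB3B. Its brighter probe set, 225001_at, read 87.7, 74.8 and 83.0 with DMSO, 80.4, 81.0 and 80.3 at 6 h and 103, 96.5 and 83.0 at 72 h. The 72 h replicate 3 lay inside the DMSO range and the other 72 h arrays above it, and the log2 difference was 0.20 ± 0.11 (1.15-fold, 0.955 to 1.38). The other probe set, 208466_at, read 31.4, 25.8 and 27.2 with DMSO, 32.1, 22.3 and 24.4 at 6 h and 26.8, 18.0 and 34.9 at 72 h. Its log2 difference at 72 h was -0.13 ± 0.22, of the opposite sign, and the mean of both probe sets gave 0.036. Under quantile normalization the brighter probe set gave 0.35.

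RAB3A, the main RAB3 protein of synaptic vesicles, read 22.6, 18.7 and 20.1 with DMSO, 22.4, 18.7 and 20.1 at 6 h and 20.1, 18.7 and 20.1 at 72 h. Only 6 distinct values occurred on the 9 arrays, since 4 arrays carried exactly the same value, which makes its spread hard to read. The log2 differences were -0.0048 ± 0.13 at 6 h and -0.056 ± 0.13 at 72 h, and the sign at 72 h turned under cyclic loess normalization (0.017) and without DMSO replicate 1 (0.018).

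RAB27A, which recruits effectors to lysosome-related organelles and secretory granules, had lower signal at 72 h on each of its 5 probe sets. The brightest, 210951_x_at, read 146, 139.6 and 150.1 with DMSO, 139.6, 147 and 156 at 6 h and 109.9, 76.0 and 72.2 at 72 h. The 72 h arrays lay below all others, with replicate 1 closest to them. The signal at 72 h was 0.582-fold that of DMSO (0.461 to 0.734, log2 -0.78 ± 0.14), against a log2 difference of 0.020 ± 0.14 at 6 h. Probe set 209514_s_at read 122, 143 and 122 with DMSO, 129.5, 122 and 124 at 6 h and 84.7, 74.0 and 87.4 at 72 h (0.638-fold). Probe set 209515_s_at read 85.9, 94.8 and 92.1 with DMSO, 76.2, 95.8 and 85.7 at 6 h and 69.4, 43.7 and 35.9 at 72 h (0.526-fold). In both, the 72 h arrays were again the lowest. The dimmer 235766_x_at (0.611-fold) and 222294_s_at (0.680-fold) ran from 14.4 to 36.9 and from 16.6 to 34.2 over the 9 arrays. On these dimmer probe sets the 72 h arrays lay below the DMSO arrays but overlapped the 6 h arrays, so they separate the groups less well than the brighter ones. All 5 carry a suffix that marks probes which can match more than 1 transcript. Leaving out single arrays moved the log2 difference of the brightest from -0.97 without 72 h replicate 1 to -0.67 without 72 h replicate 3.

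RAB27B, the near relative of RAB27A in secretory cells, read 429, 426 and 401 with DMSO, 464, 459 and 508 at 6 h and 518, 446 and 455 at 72 h on its bright probe set 228708_at. It was the only member whose arrays at 6 h did not overlap those of DMSO, with a log2 difference of 0.19 ± 0.073 (1.14-fold, 1.01 to 1.29). At 72 h the difference was 0.17 ± 0.073 and the arrays again did not overlap. The log2 difference between 72 h and 6 h was -0.014 ± 0.073, within its error. The dim probe sets 207018_s_at (14.1 to 21.8 over all arrays) and 207017_at (12.9 to 20.8) gave -0.24 ± 0.15 and -0.14 ± 0.15 at 72 h, and the mean over the 3 probe sets was -0.067. RAB27A and RAB27B thus had opposite signs at 72 h on their bright probe sets.

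The windows below run from 250 bases before to 50 bases after the transcription start, 5' to 3', from RefSeq on GRCh38.p14, which held such windows for 7 of the 10 genes (13 windows, since some genes have several starts). None was held for RAB26, RAB37 or PTPRN2. The windows are printed for the RAB3 and RAB27 genes with a bright probe set, of which RAB3B and RAB27A had lower signal at 72 h. They are also printed for CHGA, whose dim signal is given next. For RAB27A and RAB27B the first listed of 5 and 2 starts is shown. Capitals mark the GC box GGGCGG or its complement CCGCCC, the cAMP response element TGACGTCA and CATATG, 1 form of the E-box CANNTG. All were searched on both strands, and other forms of the E-box were not searched.
RAB3B, chr1:51990651-51990950, minus strand: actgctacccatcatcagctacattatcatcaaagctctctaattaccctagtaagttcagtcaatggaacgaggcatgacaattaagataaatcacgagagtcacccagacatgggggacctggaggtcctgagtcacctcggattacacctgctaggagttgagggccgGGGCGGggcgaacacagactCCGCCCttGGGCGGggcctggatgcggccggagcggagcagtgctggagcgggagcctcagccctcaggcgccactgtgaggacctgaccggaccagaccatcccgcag
RAB3D, chr19:11339608-11339907, minus strand: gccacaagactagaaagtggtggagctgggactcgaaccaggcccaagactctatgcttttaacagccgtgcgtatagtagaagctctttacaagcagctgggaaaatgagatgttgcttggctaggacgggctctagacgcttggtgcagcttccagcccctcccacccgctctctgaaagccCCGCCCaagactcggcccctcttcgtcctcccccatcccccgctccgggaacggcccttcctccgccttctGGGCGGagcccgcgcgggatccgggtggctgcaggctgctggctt
RAB27A, chr15:55319074-55319373, minus strand: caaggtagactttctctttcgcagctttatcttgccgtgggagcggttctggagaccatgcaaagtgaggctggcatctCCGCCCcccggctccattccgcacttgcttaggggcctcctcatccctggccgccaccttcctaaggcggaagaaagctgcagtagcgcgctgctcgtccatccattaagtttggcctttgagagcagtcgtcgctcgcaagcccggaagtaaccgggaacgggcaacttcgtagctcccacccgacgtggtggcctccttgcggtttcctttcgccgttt
RAB27B, chr18:54717607-54717906, plus strand: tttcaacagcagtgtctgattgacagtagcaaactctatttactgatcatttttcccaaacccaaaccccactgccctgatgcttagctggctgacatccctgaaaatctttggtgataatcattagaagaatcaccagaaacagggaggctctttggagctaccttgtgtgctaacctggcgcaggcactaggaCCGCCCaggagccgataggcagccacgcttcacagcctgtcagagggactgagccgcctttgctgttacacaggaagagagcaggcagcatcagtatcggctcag
CHGA, chr14:92922900-92923199, plus strand: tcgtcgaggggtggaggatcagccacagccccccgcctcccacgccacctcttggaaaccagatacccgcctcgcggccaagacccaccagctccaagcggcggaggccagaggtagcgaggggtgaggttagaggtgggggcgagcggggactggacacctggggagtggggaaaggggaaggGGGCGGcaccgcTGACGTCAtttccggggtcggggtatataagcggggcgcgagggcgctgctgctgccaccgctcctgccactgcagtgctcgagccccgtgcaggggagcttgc
A GC box was found in 9 of the 13 member windows, and 45.0% of the 35116 windows in the table hold one. RAB3B (58.7% G and C) held 3 GC boxes and RAB3D (62.0%) 2, while the windows of RAB27A (59.3%) and RAB27B (51.0%) held 1 each, so the genes with lower and with higher or overlapping signal at 72 h both had them. The cAMP response element was found in 1 member window, that of CHGA, with its first base at -54 from the start, against 1.85% of all windows. The E-box form CATATG was found in none of the 5 windows printed and in 2 of the 13 (a further start of RAB27A and the first of PTPRN). Of all windows 3.04% hold this form. The unmarked forms of the E-box can occur in the windows printed. Such matches of letters describe the windows and do not show binding.

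PTPRN2, or IA-2 beta, had lower signal at 72 h on its brightest probe set. On 203029_s_at the arrays read 30.0, 24.7 and 23.7 with DMSO, 23.9, 22.6 and 26.1 at 6 h and 17.0, 10.1 and 18.1 at 72 h. The 72 h arrays were the lowest of all, with replicate 2 well under the other two. The signal at 72 h was 0.561-fold that of DMSO (0.400 to 0.789, log2 -0.83 ± 0.20), and without 72 h replicate 2 the log2 difference was -0.57. The mean over the 72 h arrays, 15.1, lay under the filter value of 17.8, so the size of this difference is uncertain. A probe set below the filter, 203030_s_at, read 15.7, 11.7 and 13.9 with DMSO, 11.5, 12.9 and 10.9 at 6 h and 11.7, 8.80 and 9.92 at 72 h. Its 72 h arrays touched the DMSO range (0.737-fold). The third, 211534_x_at, read 12.5 to 13.1 on all 9 arrays, and the mean over the 3 probe sets was log2 -0.42.

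PTPRN, or IA-2, showed no difference beyond its error. Its probe set read 23.0, 20.9 and 19.2 with DMSO, 24.6, 20.9 and 18.5 at 6 h and 19.5, 17.4 and 22.3 at 72 h. The groups overlapped, and the log2 difference at 72 h was -0.096 ± 0.15 (0.936-fold, 0.723 to 1.21). CHGA, the chromogranin gene whose window holds the cAMP response element, read 10.04, 10.4 and 11.03 with DMSO, 10.9, 10.1 and 9.34 at 6 h and 9.06, 9.41 and 10.04 at 72 h. This lay below the filter on every array, and no difference beyond the array spread was detectable at this signal (log2 difference at 72 h -0.14 ± 0.10).

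**Figure D2:**
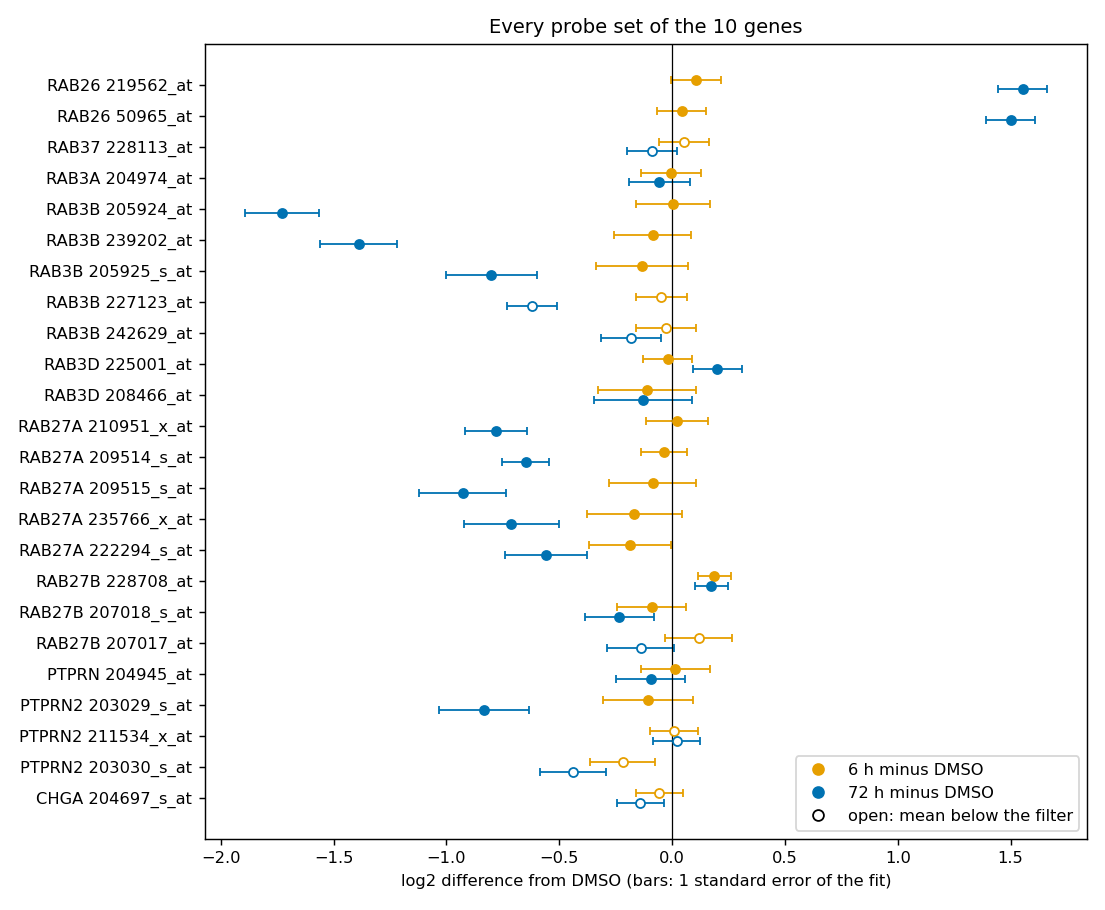
Log2 difference from DMSO of all 24 probe sets of the 10 genes at 6 h (orange) and 72 h (blue), with bars of 1 standard error of the fit (3 arrays per group) and open points for probe sets with a mean below the filter. At 72 h both RAB26 probe sets lie far to the right (1.55 for the brighter) and all 5 of RAB27A between -0.56 and -0.93, while 6 h points lie between -0.22 and 0.19.

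Of the 24 member probe sets 17 lay above the filter, and 8 of the 10 genes had at least 1 such probe set (RAB37 and CHGA had none). At 6 h, 0 of 24 passed an adjusted p of 0.05 in the limma fit over all probe sets, against 0.0732% of the 54613 probe sets fitted, and 1 of 24 had arrays that did not overlap, against 8.35%. At 72 h, 10 of 24 passed (2 higher, both of RAB26, and 8 lower), against 7.45% of all probe sets, and 13 had arrays that did not overlap, against 19.8%. The median log2 difference of the 24 at 72 h was -0.21, and that of all probe sets -0.028. Because the genes were chosen on these contrasts, nothing is read from the shares.

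Between 6 h and 72 h the members differed in nearly the same way as between DMSO and 72 h. RAB26 was 2.72-fold its 6 h signal (2.26 to 3.28), RAB3B 0.301-fold, RAB27A 0.574-fold and PTPRN2 0.605-fold (0.430 to 0.849) on their brightest probe sets. Between these times 9 of 24 member probe sets passed, against 6.46% of all probe sets. The 72 h arrays stand in both comparisons, so these are not separate evidence.

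Set among the 48 Rab genes above the filter, RAB26 had the highest log2 difference at 72 h and RAB3B the lowest, with RAB27A next to it. The nearest Rab genes outside the members were RAB40C (0.47) and RAB39B (0.44) at the upper end and RAB42 (-0.51) and RAB15 (-0.50) at the lower end. RAB3D ranked 5th from the top and RAB27B 7th, and neither stood apart from its neighbours beyond the standard error. RAB3A stood in the middle, 26th from the top.

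**Figure D3:**
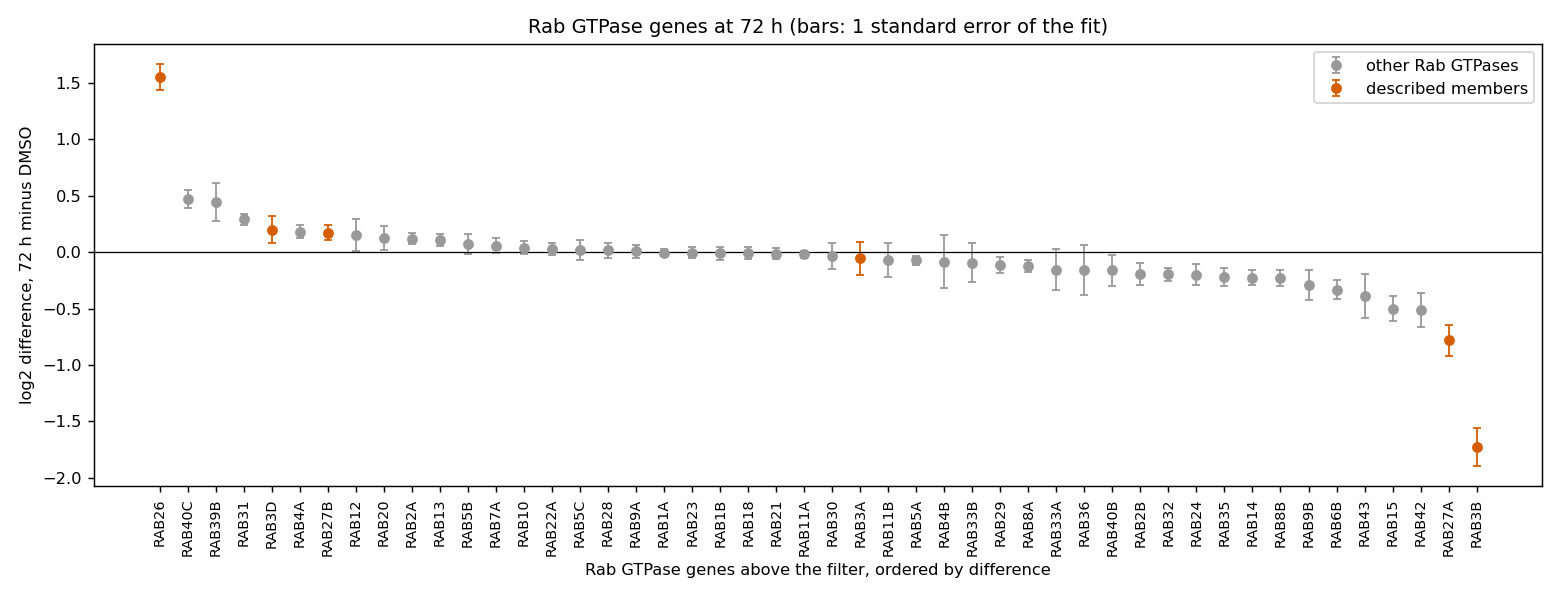
Log2 difference between 72 h and DMSO of the 48 Rab genes with a mean above the filter, ordered from high to low, with bars of 1 standard error of the fit (3 arrays per group). Orange points are the 6 Rab genes described here, of which RAB26 (1.55) lies at the upper end and RAB27A (-0.78) and RAB3B (-1.73) at the lower end.

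The genes around these GTPases were read from 9 lists of 237 genes without the members, of which 187 were measured above the filter. At 6 h, 0 of 187 passed the limma test (3 had an unadjusted p under 0.05, and 0 passed with array weights), against 0.473% of all 12678 genes. At 72 h, 38 of 187 passed, 9 higher and 29 lower, which is 20.3% against 26.6% of all genes. Of all 12678 genes 8.33% were called higher and 18.3% lower, and the counts of each list below stand beside these shares. The median log2 difference of the 187 was -0.071 and that of all genes -0.062, so the lists as a whole stood near the background. The arrays of 72 h and DMSO did not overlap in 62 of the 187, against 36.9% of all genes. They did not overlap in any of the 29 genes named next, which were picked as called.

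Among 19 measured effectors, mostly of RAB3 and RAB27, 4 fell (21.1%, against 18.3% of all genes) and none rose at 72 h. Their median was -0.13. MYO5B, a class V myosin of recycling endosomes, fell to 0.546-fold (log2 -0.87 ± 0.15, adjusted p = 0.000482), with arrays of 47.1, 49.0 and 49.98 against 29.8, 28.0 and 22.5. MLPH, the melanophilin that links RAB27A to a class V myosin, fell to 0.650-fold (-0.62 ± 0.056, adjusted p = 1.56e-06), with arrays of 834, 803 and 803 against 501, 526 and 559. ATG16L1, an autophagy protein that binds RAB26, fell to 0.744-fold (adjusted p = 0.00312), while the signal of RAB26 was higher. MYO5C, another class V myosin, fell to 0.798-fold, a call that ended with each array centred on its median (adjusted p = 0.0622).

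Of 17 measured regulators that load Rab proteins, attach their lipid tail or control their GTP cycle, 1 rose and 4 fell, with a median of -0.13. DENND1A, an exchange factor, fell to 0.715-fold (adjusted p = 0.00978, or 0.0649 without DMSO replicate 3). CHML, a Rab escort protein, fell to 0.767-fold, and its other 2 probe sets above the filter were lower as well. RABGGTB, a subunit of the enzyme that adds the lipid tail, fell to 0.898-fold, but the call ended when any of 5 arrays (DMSO replicate 1, 2 or 3 or 72 h replicate 2 or 3) was left out (adjusted p = 0.0621 to 0.154). Its call also ended with median centring and cyclic loess, among other settings. RAB3GAP1, part of the complex that turns off RAB3 proteins, rose 1.15-fold (log2 0.20 ± 0.043, adjusted p = 0.00321) on its brightest probe set, while another gave -0.061. The call ended with the mean of its probe sets (log2 0.12, adjusted p = 0.213).

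Genes of dense-core vesicle cargo and its processing gave 2 rises and no fall among 12 measured, with a median of -0.070. ATP6AP1, an accessory subunit of the vesicle proton pump, rose (log2 0.26 ± 0.047, adjusted p = 0.000795). ATP6AP2, the related accessory subunit, rose 1.13-fold on its brightest probe set. That call ended without DMSO replicate 3 (adjusted p = 0.0718) and also with median centring. The mean of the ATP6AP2 probe sets had the opposite sign (-0.030).

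Of 21 measured genes for the assembly of dense-core vesicles 2 rose and 3 fell, with a median of 0.023. AP1S2, a small subunit of the AP-1 adaptor, fell to 0.422-fold (log2 -1.25 ± 0.062, adjusted p = 2.93e-09), the deepest fall in the lists. Its arrays read 551, 553 and 568 with DMSO, 569, 538 and 579 at 6 h and 226, 230.4 and 249.5 at 72 h. ICA1L, a relative of the islet autoantigen ICA1, fell to 0.658-fold on 1 of its probe sets only, and the mean over its probe sets did not pass (log2 -0.21, adjusted p = 0.168). AP3B1, a subunit of the AP-3 adaptor, fell to 0.819-fold, and SORL1, a sorting receptor, rose 1.32-fold (adjusted p = 0.000929). The call of AP3B1 ended with median centring (adjusted p = 0.0591) and with the mean of its probe sets (0.455).

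**Figure D4:**
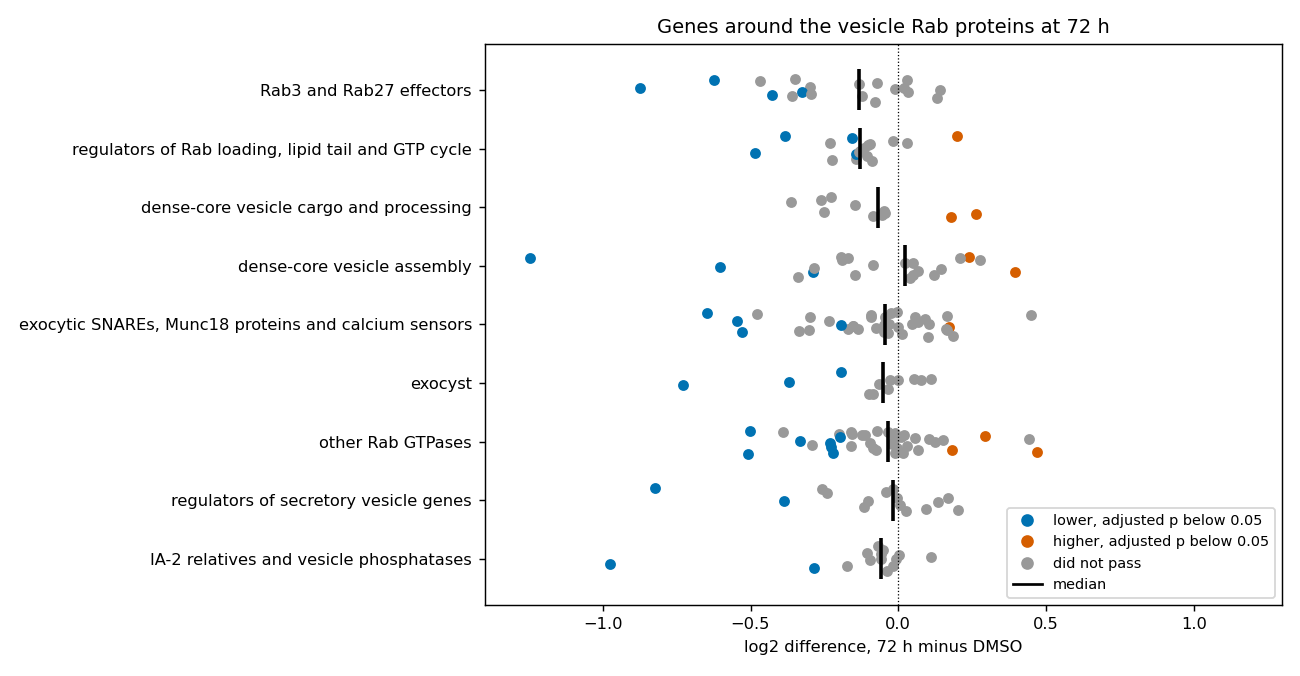
Log2 difference between 72 h and DMSO of the 187 measured genes in the 9 lists (3 arrays per group), 1 point per gene, with a black bar at the median of each list. Blue and orange points passed an adjusted p of 0.05 as lower or higher, and the medians lie between -0.13 and 0.023 while AP1S2 lies at -1.25.

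Membrane fusion genes (SNAREs, their Munc18 partners and calcium sensors) gave 1 rise and 4 falls among 38 measured, with a median of -0.045. STX3, a syntaxin of apical membranes and granules, fell to 0.638-fold (log2 -0.65 ± 0.069, adjusted p = 7.81e-06). STX1A, a syntaxin of neurons and endocrine cells, fell to 0.694-fold (adjusted p = 0.00076). STX4, a syntaxin of basolateral membranes, fell to 0.684-fold on its brightest probe set, and another gave 0.32. With the mean of its probe sets the call of STX4 ended (log2 -0.11, adjusted p = 0.187). SCAMP3, a carrier membrane protein, fell to 0.874-fold, a call that ended without DMSO replicate 1 or 3 or 72 h replicate 1 or 2 (adjusted p = 0.0501 to 0.13). Of the 12 exocyst genes, whose complex tethers vesicles at the plasma membrane, 3 fell, with a median of -0.050. RALB, the GTPase that engages the exocyst, fell to 0.604-fold (log2 -0.73 ± 0.089, adjusted p = 2.66e-05). The falls of EXOC6B (0.773-fold) and EXOC7 (0.873-fold) were less firm. EXOC6B no longer passed when any array but 72 h replicate 1 was left out (adjusted p = 0.0552 to 0.129) or with the mean of its probe sets (0.265). EXOC7 no longer passed without DMSO replicate 3 (0.12) or with the mean of its probe sets (0.0504). The calls of SCAMP3, EXOC6B and EXOC7 also ended with each of the 3 scalings (median centring, quantile and cyclic loess normalization).

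Of the 39 measured genes in the list of other Rab GTPases (RAB2A, RAB2B and RAB10 stand in the list of vesicle assembly) 3 rose and 7 fell, with a median of -0.035. RAB15, a GTPase of endosome recycling, fell to 0.707-fold (adjusted p = 0.00338) and RAB6B, a neuronal Golgi GTPase, to 0.794-fold. RAB42 fell to 0.703-fold, but not without DMSO replicate 1 or 72 h replicate 2 (adjusted p = 0.0663 to 0.116). RAB40C, which takes part in ubiquitin ligases, rose 1.39-fold on its brightest probe set (adjusted p = 0.000734), while another probe set gave -0.38. With the mean of its probe sets the call of RAB40C ended (log2 0.0037, adjusted p = 0.988). The call of RAB6B ended with median centring (adjusted p = 0.0508). Of 14 measured relatives of IA-2 and vesicle phosphatases 2 fell, with a median of -0.060. PTPRF, a receptor tyrosine phosphatase, fell to 0.509-fold (log2 -0.97 ± 0.056, adjusted p = 1.49e-08), with arrays of 1055, 1094 and 1155 against 538, 593 and 549.9. PTPN12 fell to 0.820-fold, and not with median centring (adjusted p = 0.0501).

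Of 15 measured regulators of secretory vesicle genes 2 fell at 72 h, with a median of -0.019. CREB3L2, a membrane-bound factor of the secretory pathway, fell to 0.565-fold (log2 -0.82 ± 0.11, adjusted p = 9.27e-05) and its relative CREB3 to 0.765-fold (adjusted p = 0.000289). The mean of the CREB3L2 probe sets gave a smaller log2 difference of -0.31 (adjusted p = 0.0346). REST, the repressor of neuronal and dense-core vesicle genes, read 330.2, 363 and 306 with DMSO, 254, 346 and 346 at 6 h and 366, 379 and 401 at 72 h. Its 72 h arrays lay above the others, at a log2 difference of 0.20 that did not pass. BHLHA15, also called MIST1, an acinar factor known to act on RAB26 and RAB3D, read 8.53 to 11.9 over the 9 arrays, which lies below the filter.

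Between 6 h and 72 h, 43 of the 187 listed genes passed, 12 higher and 31 lower, against 24.0% of all genes (7.28% higher and 16.7% lower). The arrays of the 2 times did not overlap in 60 of the 187, against 33.7% of all genes. RAB26 and RAB3B ranked second from the highest and 12th from the lowest of the 12678 genes in that comparison.

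The genes whose array pattern came nearest to each member were found by the root mean square gap of the log2 signal from its DMSO mean over the 9 arrays, so the gap is in log2 units and the arrays are shared. For RAB26 the 5 nearest were TM7SF2 (a sterol reductase, gap 0.11), IFITM1 (an interferon-induced membrane protein, 0.14), ADCY9 (an adenylate cyclase, 0.21), ASNS (asparagine synthetase, 0.22) and PHGDH (the first enzyme of serine synthesis, 0.22). The 100th nearest gene lay at 0.54 and the median gene at 0.95. The gap depends on the size of the 72 h change. Few genes changed as much as RAB26 or RAB3B, so having few near genes follows from their ranks. For RAB3B the nearest were IFIT3 (an interferon-induced protein, 0.12) and MGLL (monoglyceride lipase, 0.14), against a 100th nearest at 0.52. PPP2R3B and P4HA2 (a collagen prolyl hydroxylase subunit) were nearest to RAB27A, at 0.078 and 0.081, and ATXN7L1 and FERMT1 (an integrin adaptor) to PTPRN2, at 0.085 and 0.11. For the members that moved little many genes lay about as near, which follows in the same way from the small size of their change. Their nearest were TBC1D5 and IDH2 for RAB3D, FECH and DUSP28 for RAB27B, CST4 and IKZF1 for RAB3A and DMRT3 and GRAPL for PTPRN, with gaps from 0.049 to 0.066.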

How the data were processed

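Biotin-labelled RNA was read on Affymetrix arrays. The authors deposited linear probe set intensity in 1 table, made with MAS5 per the submitters' processing notes (version not given in the sources used here). For 59.2% of probe sets some arrays carry an identical value, so the summary method is uncertain, spreads can be too small and differences of dim genes understated. Values were log2 transformed without further normalization. The platform's probe table gave the gene names, with 41043 of 54675 probe sets matched to RefSeq, and probe sets with several symbols were not named. The members and lists were chosen with earlier results of these data known.

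Models were fitted with limma 3.58.1 (lmFit, eBayes with a mean-variance trend) in R 4.3.3 to all 9 arrays, with 6 residual degrees of freedom. Member probe sets were read from a fit over 54613 non-control probe sets. Lists were read from a fit over 12678 genes, each by its brightest probe set with a mean above the median probe set (linear 17.8). Calls were made below a Benjamini-Hochberg adjusted p of 0.05, and "rose" and "fell" refer to called genes. Named were all members with all their probe sets, up to 4 called genes per list at 6 h and at 72 h and up to 2 between the times with the largest change, REST and BHLHA15, and the nearest genes of each member above the filter (5 for RAB26 and 2 for each other). The fits were tested on simulated data with known answers. In the simulated data 40 of 159 calls were false for 72 h against DMSO and 30 of 158 for 72 h against 6 h. For 6 h against DMSO 9 of 133 were false. The share of false calls thus lay above the nominal 0.05, most of all with the 72 h arrays. Counts of calls, and calls with an adjusted p near 0.05, can therefore include more false ones than the threshold states.

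The labels give no batch, and nothing says whether replicates were separate cultures; p-values therefore cover the spread between these samples alone, which may be technical. The number of arrays limits the precision. Alternatives were 3 scalings, other filters, a pseudocount of 16, the mean of a gene's probe sets, other variance models, a replicate block and leaving out each array.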

Additional observations from a re-analysis of the deposited data

Results flagged for a closer look

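The effect at 72 h minus the effect at 6 h is the comparison of 72 h with 6 h, as both share DMSO arrays. This difference passed the limma test for 29 of the 32 named genes of the lists, 24 lower and 5 higher at 72 h. The 32 genes were named because they were called at 72 h or between the times, so this count follows largely from that choice. Log2 values of this difference were lowest for AP1S2 (-1.26, adjusted p = 3.98e-09), PTPRF (-0.93, adjusted p = 4.3e-08), CREB3L2 (-0.76), MYO5B (-0.72), MLPH (-0.71, adjusted p = 6.32e-07) and RALB (-0.61). Smaller lower values were found for ICA1L (-0.57), CREB3L4 (-0.53), STX11 (-0.52), STX4 (-0.52), STX3 (-0.50), RAB15 (-0.48), MYO5C (-0.46), EXOC6B (-0.43), STX1A (-0.42), DENND1A (-0.40), RAB6B (-0.40), CREB3 (-0.37), CHML (-0.32), CYB561 (-0.29), ATG16L1 (-0.28), AP3B1 (-0.24), EXOC7 (-0.20) and SCAMP3 (-0.19), with adjusted p from 0.000119 for STX3 to 0.0471 for STX11. SORL1 (0.39), RAB40C (0.32), RAB3GAP1 (0.20), ATP6AP2 (0.17) and ATP6AP1 (0.16) were higher, with adjusted p from 0.00146 for SORL1 to 0.0262 for ATP6AP1. The arrays of 6 h and 72 h did not overlap for 28 of the 29, against 33.7% of all genes. Since the 29 were picked as called, nothing is read from that share.

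These calls ended under at least 1 alternative for 17 of the 29. STX11 and ATG16L1 were lost when any of 7 arrays was left out in turn (adjusted p = 0.065 to 0.14 and 0.0535 to 0.125), and STX11 fell from -0.52 to -0.28 without 72 h replicate 3. SCAMP3 was lost without any of 6 arrays (0.0518 to 0.154) and DENND1A without any 6 h array or 72 h replicate 2 or 3 (0.0555 to 0.105). ATP6AP1 and CREB3L4 were lost without replicate 2 or 3 of either time (0.0537 to 0.127 and 0.0635 to 0.0812). The remaining losses to single arrays were CYB561 without 6 h replicate 1 or 72 h replicate 1 or 2, ATP6AP2 without 6 h replicate 1 or 72 h replicate 2 or 3, EXOC6B without 6 h replicate 1 or 3 or 72 h replicate 3, EXOC7 without 6 h replicate 2 or 3 and RAB40C without 6 h replicate 1 or 72 h replicate 2. With the mean of a gene's probe sets the calls of CREB3L2 (-0.26, adjusted p = 0.0744), STX4 (-0.10), ICA1L (-0.21), RAB3GAP1 (0.10) and RAB40C (0.079) ended.

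Of the members, RAB3D on its bright probe set had all 3 arrays at 6 h below the DMSO mean and all 3 at 72 h above it, a difference of 0.22 log2 units between the times that was not tested, since the genes were chosen on these arrays.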

How the results depend on the processing

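Of the members, RAB26, RAB3B, RAB27A and PTPRN2 kept the sign of their 72 h difference under all 20 alternatives. So did RAB37, RAB3D, PTPRN and CHGA, whose differences were small, so a kept sign does not set the larger differences apart. RAB26 moved to 1.38 with a pseudocount of 16. RAB3A turned to 0.017 with cyclic loess and to 0.018 without DMSO replicate 1, and RAB27B to -0.067 with the mean of its probe sets. Of 29 named list genes called at 72 h, 14 passed under every alternative in which they were measured, and of 29 called between the times 12 did; ATP6AP2 reversed with the mean of its probe sets, to -0.030 at 72 h and -0.034 between the times. The cause was not tested.

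Genes called at 6 h numbered 60, against 37 with each array centred on its median, 23 with the mean of probe sets, 23 without a mean-variance trend, 211 with array weights and 28 to 71 with 1 array left out (31, 38 and 34 without DMSO replicate 1, 2 and 3, 28 and 34 without 6 h replicate 2 and 3). At 72 h, 3378 were called, against 2104 with median centring and 2292 (without DMSO replicate 3) to 4225 (without 72 h replicate 1) with 1 array left out; between the times 3037, against 1786 and 2125 to 4003. Listed genes called were 38 at 72 h, against 24 with median centring and 26 to 49, and 43 between the times, against 24 and 30 to 50. Called listed genes at 72 h were 9 higher and 29 lower, 17 and 24 with quantile normalization, 18 and 24 with cyclic loess and 8 and 16 with median centring. Of all genes called at 72 h 68.7% were lower, and 54.3%, 52.5% and 61.0% with these scalings in the same order. The balance of the lists thus shifted with that of all genes, and nothing is read from it about the listed genes.

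Deviations of same-numbered arrays from their group means had correlations from -0.26 to 0.20. With 3 arrays per group this cannot show whether same-numbered arrays shared a culture or batch. The replicate block gave 54, 3193 and 2840 called genes and 0, 36 and 39 listed ones at 6 h, 72 h and between the times. REST between the times (0.29, adjusted p = 0.0605) passed under 6 of the 20 alternatives: quantile normalization (0.35, adjusted p = 0.023), cyclic loess (0.36, 0.019), a filter at the 70th percentile (0.0453), the replicate block (0.0429) and without 6 h replicate 2 (0.0445) or 3 (0.041). Under 14 it did not pass. Its log2 difference was smallest without 6 h replicate 1 (0.14, limma adjusted p = 0.273), with the mean of its probe sets (0.17, 0.415) and with array weights (0.21, 0.235). Precision is limited by 3 arrays per group, and RAB37 and CHGA lay below the filter.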
